A study of Mus musculus with 6 samples.

Results

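Glycolysis, glucose uptake and lactate handling were examined through 34 genes, chosen by symbol: the glucose transporters, every step from hexokinase to lactate dehydrogenase, the lactate carriers, the kinases that set pyruvate and fructose bisphosphate flux, and a few genes of the hypoxia response. The list named 35 symbols, of which Pkm2 is an older name for Pkm and has no row of its own. All 34 genes were among the 24391 in the table of counts. Of these, 29 were expressed highly enough to be tested, and Eno1, Ldhb, Pdk3, Pdk4 and Egln3 were not.

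The cells were Neuro2a, an established mouse neuroblastoma line. All 6 samples were kept in a medium labelled D-MEM(-SG) with fetal bovine serum, an abbreviation that the labels do not spell out. The 3 control samples received vehicle and the 3 others 5 mM D-serine, and RNA was taken after 18 h. D-serine is the mirror image of L-serine, known chiefly for acting beside glutamate at NMDA receptors. The comparison asks which transcripts differ when it is present. The labels number the libraries of each group but do not say whether they came from separate cultures, so p-values measure the spread between these libraries, which may be technical.

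Glycolysis splits glucose into pyruvate. In its first phase, hexokinase traps glucose as glucose 6-phosphate and phosphofructokinase commits it to breakdown. In its second phase, ATP and NADH are made, and pyruvate kinase releases pyruvate. Lactate dehydrogenase turns pyruvate into lactate, which leaves the cell through monocarboxylate transporters, while pyruvate dehydrogenase kinases hold pyruvate back from the mitochondria. Many of these genes are textbook targets of HIF-1, the factor that accumulates when the prolyl hydroxylases of the Egln family lack oxygen. Tumour lines, neuroblastoma included, commonly run glycolysis at a high rate even in air.

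Total counts per library lay between 32518483 and 40024265. Expression is given as CPM, a gene's count relative to the library's total, scaled with TMM, the trimmed mean of M-values, and levels of different genes are compared only as CPM per kilobase of exon. Of 14 neuroblastoma and sympathoadrenal markers, 13 reached 1 CPM on average, Hand2 at 249 CPM among them. The summed level of the list ran from 1760 to 1860 CPM in the controls and from 1870 to 2010 CPM under D-serine, and 2 of the 14, Mycn and Tubb3, were called higher. The part of this rise in the results below was not tested. Among the lists for other cell types, 1 of 6 fibroblast, 1 of 6 macrophage, 0 of 6 astrocyte and 0 of 5 epithelial markers reached 1 CPM. Their summed levels were 5.7 to 6.09, 1.05 to 2.2, 0.189 to 0.376 and 0.108 to 0.713 CPM in the controls and 4.61 to 6.9, 1.07 to 1.6, 0.357 to 0.745 and 0.223 to 0.544 CPM under D-serine. Col3a1, Lum, Aqp4, Gja1 and Krt14 had no count in any library. D-serine replicate 1 stood apart from its fellows: its deviation from the gene means had a slope of -0.0717 log2 CPM per doubling of exon length, against 0.0356, 0.0191 and 0.0152 in controls 1 to 3 and 0.00581 and -0.00397 in D-serine replicates 2 and 3. Every control slope also lay above every D-serine slope. The part of these slopes in the results for single genes was examined by removing each library's trend and by leaving out D-serine replicate 1. In bulk RNA, fewer cells expressing a gene and less of its RNA per cell cannot be told apart.

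The 34 genes together held 0.665% ± 0.011 of all counts in the controls and 0.652% ± 0.017 with D-serine (SD, n = 3 each), and the groups overlapped. Per kilobase of exon, Aldoa was the most abundant at 490.3 CPM per kb, followed by Pkm at 439, Tpi1 at 254, Ldha at 236 and Pgk1 at 218. These ranked 105, 125, 221, 243 and 261 among the 13366 tested genes. At the other end, Pdk2 had 0.489 and Pdk1 0.178 CPM per kb. The plot of levels shows all 34, and the scatter between libraries is widest at its low end.

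**Figure D1:**
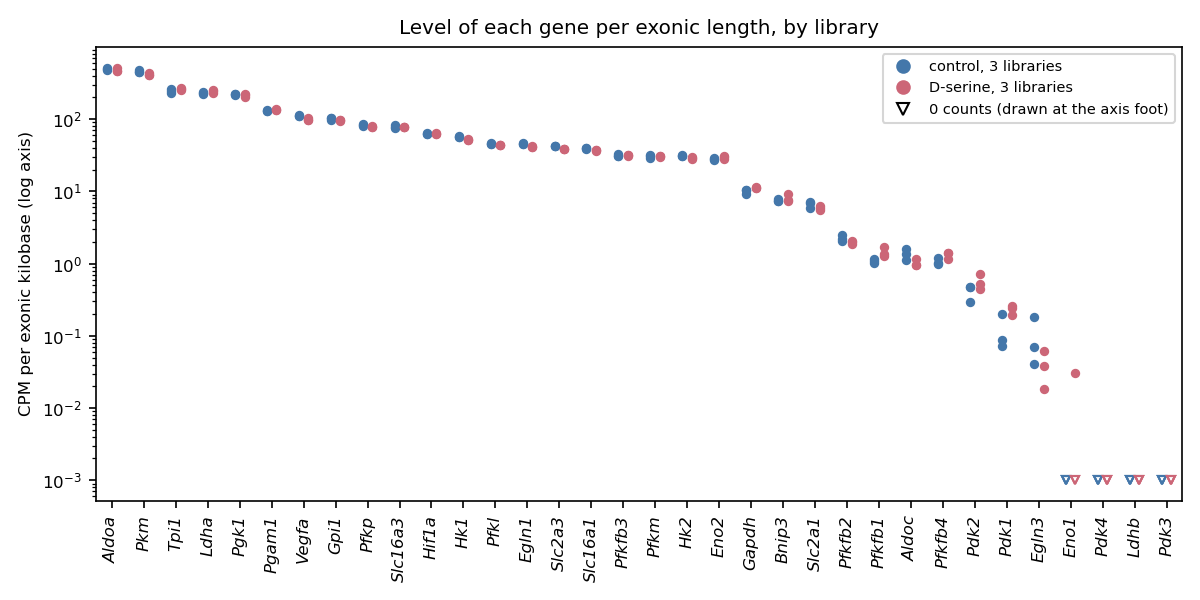
Level of each of the 34 genes in CPM per exonic kilobase (log axis), 1 point per library, control in blue and D-serine in red, ordered by mean. Aldoa and Pkm lead at 490.3 and 439 CPM per kb; Pdk3, Pdk4 and Ldhb have no count in any library (open triangles at the foot of the axis), and Eno1 has 2 counts in 1 library.

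Of the 5 untested genes, Ldhb, which encodes the heart-type subunit of lactate dehydrogenase, had no count in any of the 6 libraries. So did Pdk3 and Pdk4. A count of 0 allows up to 3 counts, or between 0.0745 and 0.0930 CPM by library, for counting error only. Egln3, a hypoxia-inducible prolyl hydroxylase, had 6, 18 and 4 counts in controls 1 to 3 and 4, 6 and 2 counts in D-serine replicates 1 to 3.

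Eno1, the ubiquitous enolase, was listed with 2 counts in D-serine replicate 2 and 0 in the others. Its row shares 1649 of its 1776 exonic bases with the row of Eno1b on the same strand, because the Eno1b row lists exons at the Eno1 locus on chromosome 4 besides others on chromosome 18. Eno1b had a mean of 137 CPM in the controls and 126 CPM under D-serine. How reads that fall in both rows were counted is not given in the sources used here, so neither row can be read as the level of one gene. Gapdh, whose transcript is usually among the most abundant of a cell, had only 10.57 CPM per kb and ranked 6467. Of the 50-base stretches in its GENCODE transcripts, 24.7% also occur in transcripts of 222 other genes, 213 of them pseudogenes. The share was 53.9% for Pgk1, 36.9% for Bnip3, 36.2% for Pgam1, 21% for Ldhb, 14.2% for Pkm, 9.26% for Ldha and 5.13% for Aldoa, and 0% for Hk1, Hk2, Slc2a1, Egln1 and Hif1a. These shares pool the stretches of all annotated transcripts of a gene, so they cannot be compared between genes as shares of the counted exons. Gapdh had 4598 such stretches, 1136 of them shared, beside 1496 exonic bases in its row. Pgk1 had 2240, with 1207 shared, beside 1825 exonic bases. The part of repeated sequence in the counts of these genes was not tested, and their levels are uncertain.

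The D-serine and control groups were set against each other by edgeR's quasi-likelihood test with Benjamini-Hochberg adjustment over all 13366 genes. Of the 29 tested genes, 3 passed an adjusted p under 0.05 and all 3 were lower with D-serine: Vegfa, Hk1 and Pkm. None was higher. An unadjusted edgeR p under 0.05 was found for 8 of the 29 and for 3769 of all 13366 genes. The 3 calls are 10.3% of the 29, beside 9.74% of all tested genes, 4.84% higher and 4.9% lower. The overall count of calls is therefore no result about glycolysis. Groups were fully separate in 11 of the 29 (37.9%), 9 lower and 2 higher. Over all 13366 genes they were separate in 32.9%, 2223 lower and 2168 higher. The median log2 fold change of the 29 was -0.04 and that of all genes 0.0053. Below 0 were 19 of the 29 and 6476 of all 13366 genes. As 5 of the 34 genes were left out for low counts, these figures describe the tested ones. The division of all calls depended on the scaling: it was 647 higher and 655 lower by TMM, and 914 higher and 412 lower by upper quartile.

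Most differences were small and bounded. Among the genes above 50 CPM, the 95% intervals of the log2 fold change reached no lower than -0.27, for Vegfa, and no higher than 0.20, for Tpi1. The widest intervals in the plot of changes belong to genes under 5 CPM, namely Pdk1, Pdk2, Pfkfb1, Pfkfb4 and Aldoc.

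**Figure D2:**
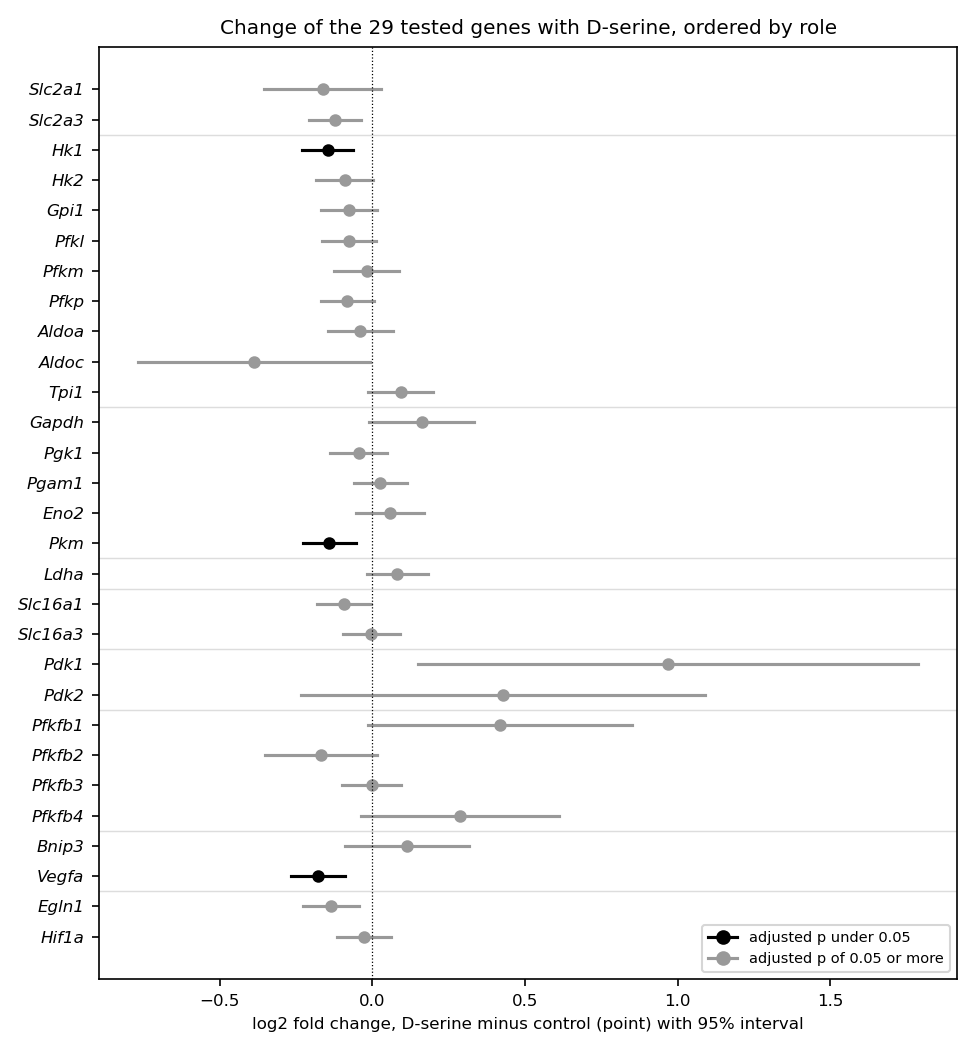
Log2 fold change (D-serine minus control, point) with its 95% interval for the 29 tested genes, grouped by role from glucose transporters at the top to the hypoxia genes at the bottom; black marks an adjusted p under 0.05. Hk1, Pkm and Vegfa are black and lie below 0, at -0.15, -0.14 and -0.18.

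Promoter sequence is shown for both called genes whose first window holds no annotated exon, Hk1 and Vegfa, and for Hk2, Ldha and Pgk1, members with HIF-type letters close to their start that did not pass the test. Each is the 250 bases before the most upstream RefSeq start (assembly GRCm38.p6), 5′ to 3′ on the gene's strand, with ACGTG and GCGTG, the core letters bound by HIF-1, in capitals on either strand.
Hk1, chr10:62379909-62380158, minus strand: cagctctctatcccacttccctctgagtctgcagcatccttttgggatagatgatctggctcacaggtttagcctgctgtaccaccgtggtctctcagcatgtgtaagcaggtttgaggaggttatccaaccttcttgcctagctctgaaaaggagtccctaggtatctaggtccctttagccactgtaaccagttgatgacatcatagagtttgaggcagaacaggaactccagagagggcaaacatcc
Vegfa, chr17:46032378-46032627, minus strand: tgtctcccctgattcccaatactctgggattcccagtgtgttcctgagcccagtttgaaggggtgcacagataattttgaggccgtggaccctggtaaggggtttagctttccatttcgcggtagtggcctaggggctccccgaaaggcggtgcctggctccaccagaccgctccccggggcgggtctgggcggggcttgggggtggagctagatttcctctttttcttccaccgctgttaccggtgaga
Hk2, chr6:82774455-82774704, minus strand: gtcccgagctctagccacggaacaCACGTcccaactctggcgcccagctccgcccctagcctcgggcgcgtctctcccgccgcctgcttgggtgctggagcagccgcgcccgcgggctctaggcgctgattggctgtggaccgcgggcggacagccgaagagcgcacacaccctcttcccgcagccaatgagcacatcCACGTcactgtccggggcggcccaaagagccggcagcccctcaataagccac
Ldha, chr7:46845554-46845803, plus strand: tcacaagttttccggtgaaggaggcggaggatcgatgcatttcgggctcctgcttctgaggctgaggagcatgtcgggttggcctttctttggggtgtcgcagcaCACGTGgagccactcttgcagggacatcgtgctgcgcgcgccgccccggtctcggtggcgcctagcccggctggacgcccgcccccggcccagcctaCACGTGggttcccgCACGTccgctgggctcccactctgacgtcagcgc
Pgk1, chrX:106186850-106187099, plus strand: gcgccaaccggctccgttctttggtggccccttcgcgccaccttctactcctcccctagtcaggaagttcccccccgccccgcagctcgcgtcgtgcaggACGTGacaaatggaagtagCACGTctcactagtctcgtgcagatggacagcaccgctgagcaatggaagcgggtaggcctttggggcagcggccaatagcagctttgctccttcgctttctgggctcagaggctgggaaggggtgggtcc

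The Hk1 and Vegfa windows shown hold neither motif. The windows of their second start sites, which overlap annotated exons and are not shown, hold 3 positions for Hk1 and 2 for Vegfa. Both windows of Pkm overlap exons and are not shown either. The second holds a position 75 bases before its start, and the first holds neither motif. The windows of Gpi1, Tpi1 and Eno2, which were not called, also hold neither motif. As uncalled genes were picked for these letters, the windows shown give no contrast between called and uncalled genes. Ldha has 5 positions, beginning 145, 144, 48, 47 and 34 bases before the start, which include 2 copies of CACGTG, the palindromic E-box that contains ACGTG on both strands. Hk2 has 2 positions at 226 and 52 bases, and Pgk1 has 2 at 150 and 131 bases. A RefSeq window was found for 33 of the 34 genes, with 53 start sites in all; Slc2a3 had none. ACGTG occurred in 43.4% of these windows and GCGTG in 50.9%, against 16.6% and 28.2% of all 32851 windows of the same length. CACGTG occurred in 15.1% against 6.02%. The windows of these genes were also richer in G and C, with a median of 59.6% against 52.4%. These matches describe letters within 250 bases, not sites in use.

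Nervous tissue takes up glucose mainly through the facilitative transporters GLUT1 and GLUT3, encoded by Slc2a1 and Slc2a3. Slc2a3 was at 168, 168 and 169 CPM in controls 1 to 3 and at 154, 154 and 155 CPM in D-serine replicates 1 to 3. The replicates of each group were nearly identical and the groups did not overlap. The log2 fold change was -0.12 (SE 0.040, 95% interval -0.21 to -0.04), but the edgeR adjusted p of 0.0693 missed the threshold. Slc2a1 had 17.5, 15.1 and 18.2 CPM in the controls and 16.0, 14.1 and 15.2 CPM under D-serine, and its groups overlapped (log2 fold change -0.16, SE 0.088, edgeR adjusted p = 0.247). Per kilobase, Slc2a3 made up 86.6% ± 1.07 of this pair in the controls and 86.9% ± 0.69 with D-serine (SD, n = 3 each).

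Hexokinase I, the product of Hk1, is the constitutive enzyme of brain and neurons, and hexokinase II (Hk2) the inducible form of muscle and tumours. Hk1 lies on chromosome 10 (deposited span 61731603 to 61842656, minus strand, in a build the table does not name). It had 262, 258 and 259 CPM in controls 1 to 3 and 231, 238 and 235 CPM in D-serine replicates 1 to 3. Every D-serine library lay below every control. Hk1 fell by 9.64% (log2 fold change -0.15, SE 0.039, edgeR adjusted p = 0.0357). This call was lost on omitting 1 library in 4 of 6 fits, those without control replicate 1, 2 or 3 or D-serine replicate 3, with an adjusted p of up to 0.129. Under upper quartile scaling it was 0.0764.

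Hk2 was at 169, 173 and 173 CPM in the controls and 160, 168 and 156 CPM under D-serine. Its groups did not overlap either, yet it missed the threshold (log2 fold change -0.09, SE 0.043, edgeR adjusted p = 0.190). Hk1 held 64.9% ± 0.47 of the hexokinase level per kilobase in the controls and 64.0% ± 0.69 with D-serine, so the balance of the isozymes shifted by less than 1 percentage point and the libraries overlapped.

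After hexokinase, none of the genes of the preparatory phase passed the test. Gpi1, which isomerises glucose 6-phosphate, had a log2 fold change of -0.08 (SE 0.043, edgeR adjusted p = 0.269). The 3 phosphofructokinase genes encode the liver, muscle and platelet subunits of the enzyme. Pfkp, the platelet type, had 355, 339 and 345 CPM in the controls and 323, 335 and 324 CPM under D-serine, and Pfkl, the liver type, had 169.9, 169 and 176 against 164, 161 and 163 CPM. Neither pair of groups overlapped, with log2 fold changes of -0.08 for both (edgeR adjusted p = 0.201 for Pfkp and 0.241 for Pfkl). Pfkm, the muscle type, was at 94.6 ± 5.00 CPM in the controls and 93.4 ± 0.69 CPM under D-serine (SD, n = 3 each). Its log2 fold change of -0.02 (95% interval -0.12 to 0.09) turned to 0.01 under upper quartile scaling. Pfkp held 51.7% ± 1.20 of the family per kilobase, Pfkl 28.9% ± 0.28 and Pfkm 19.4% ± 0.95 in control.

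Aldolase splits fructose 1,6-bisphosphate, and triose phosphate isomerase interconverts its products. Aldoa stood at 906 ± 39.2 CPM in the controls and 882 ± 54.0 CPM under D-serine (log2 fold change -0.04, SE 0.049, edgeR adjusted p = 0.641). Aldoc, the aldolase of brain, held only 0.274% ± 0.061 of the pair per kilobase in control, with 148, 144 and 119 counts there and 132, 101 and 112 with D-serine (log2 fold change -0.39, SE 0.18, edgeR adjusted p = 0.171). Tpi1 went the other way, at 374, 389 and 417 CPM in the controls against 436, 401 and 420.5 CPM under D-serine, with overlapping groups (log2 fold change 0.09, SE 0.049, edgeR adjusted p = 0.236). Of the 9 tested genes of the preparatory phase, 8 had a negative log2 fold change, beside 6476 of all 13366 genes. A single call (11.1%, beside 9.74% of all genes) and 4 genes without overlap (44.4%, beside 32.9%) are no result about this phase.

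The payoff phase was mixed, with 3 of its 5 tested genes above 0 and 2 below. Pkm, pyruvate kinase of muscle type and of most proliferating cells, carries out the last step. It lies on chromosome 9 (deposited span 59504175 to 59527182, plus strand). Controls 1 to 3 had 1176, 1172 and 1239 CPM and D-serine replicates 1 to 3 had 1125, 1062 and 1066 CPM. All D-serine libraries were below all controls, and replicate 1 lay closest to them. Pkm fell by 9.32% (log2 fold change -0.14, SE 0.040, edgeR adjusted p = 0.0442). Gene-level counts do not separate its M1 and M2 splice forms. The call was lost on omitting 1 library in 5 of 6 fits, with adjusted p from 0.0912 to 0.165, and kept without D-serine replicate 1 (0.00183); upper quartile scaling gave 0.118.

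Between aldolase and pyruvate kinase, Pgk1 and Pgam1 differed little. Phosphoglycerate kinase (Pgk1) had a log2 fold change of -0.04 (95% interval -0.14 to 0.05, edgeR adjusted p = 0.542), and phosphoglycerate mutase (Pgam1) 0.03 (95% interval -0.06 to 0.11, edgeR adjusted p = 0.710), which was -0.01 with the length trend removed. Eno2, the enolase of neurons, was at 78.6 ± 2.18 CPM in the controls and 81.9 ± 4.10 CPM under D-serine (log2 fold change 0.06, SE 0.051, edgeR adjusted p = 0.482). Gapdh, with 498, 585 and 506 counts in the controls and 655, 625 and 661 with D-serine, was higher in every D-serine library. At 14.9 ± 1.17 against 16.7 ± 0.30 CPM its log2 fold change was 0.16 (SE 0.080, edgeR adjusted p = 0.203).

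Ldha, the muscle-type lactate dehydrogenase that favours lactate formation, was the only lactate dehydrogenase of the pair with counts. With Ldhb set to 3 counts per library, the deposited counts per kilobase of Ldha were at least 3100-fold to at least 4350-fold higher by library. These bounds cover counting error only, and the repeated sequence of Ldhb leaves its true level uncertain. Ldha had 426, 448 and 454 CPM in the controls and 492, 445 and 469 CPM under D-serine. The groups overlapped through D-serine replicate 2, and the difference missed the threshold (log2 fold change 0.08, SE 0.046, 95% interval -0.02 to 0.18, edgeR adjusted p = 0.263).

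Lactate crosses the membrane through MCT1 (Slc16a1) and MCT4 (Slc16a3). Slc16a1 was at 171, 175 and 178 CPM in the controls and 163, 163 and 166 CPM under D-serine, so the groups did not overlap (log2 fold change -0.09, SE 0.041, edgeR adjusted p = 0.161). Slc16a3 was level, at 202 ± 7.73 and 202 ± 1.44 CPM, with a log2 fold change of -0.0027 (95% interval -0.10 to 0.09) that was 0.03 under upper quartile scaling. The share of Slc16a3 in the pair per kilobase was 66.3%, 66.4% and 67.0% in the controls and 68.3%, 67.9% and 67.6% with D-serine. These shares did not overlap between groups, where 3 libraries against 3 cannot give an exact permutation p under 0.1. Slc16a1 has 4430 exonic bases and Slc16a3 2577, and the shares were not recomputed with the length trend removed. With it removed, the log2 fold changes were -0.06 for Slc16a1 and -0.01 for Slc16a3. The part of exon length in the shares was not tested. Partner genes of monocarboxylate transporters were in a separate list. Emb, which encodes embigin, fell, with means of 479 ± 4.28 in the controls and 434 ± 5.29 CPM under D-serine (edgeR log2 fold change -0.14, SE 0.038, adjusted p = 0.0344). Bsg, which encodes basigin, had a log2 fold change of 0.05 (edgeR adjusted p = 0.546). Which partner serves Slc16a1 or Slc16a3 in these cells was not tested. The Emb call was kept without D-serine replicate 1, lost without any other single library (adjusted p of up to 0.141) and lost under upper quartile scaling (0.0905).

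**Figure D3:**
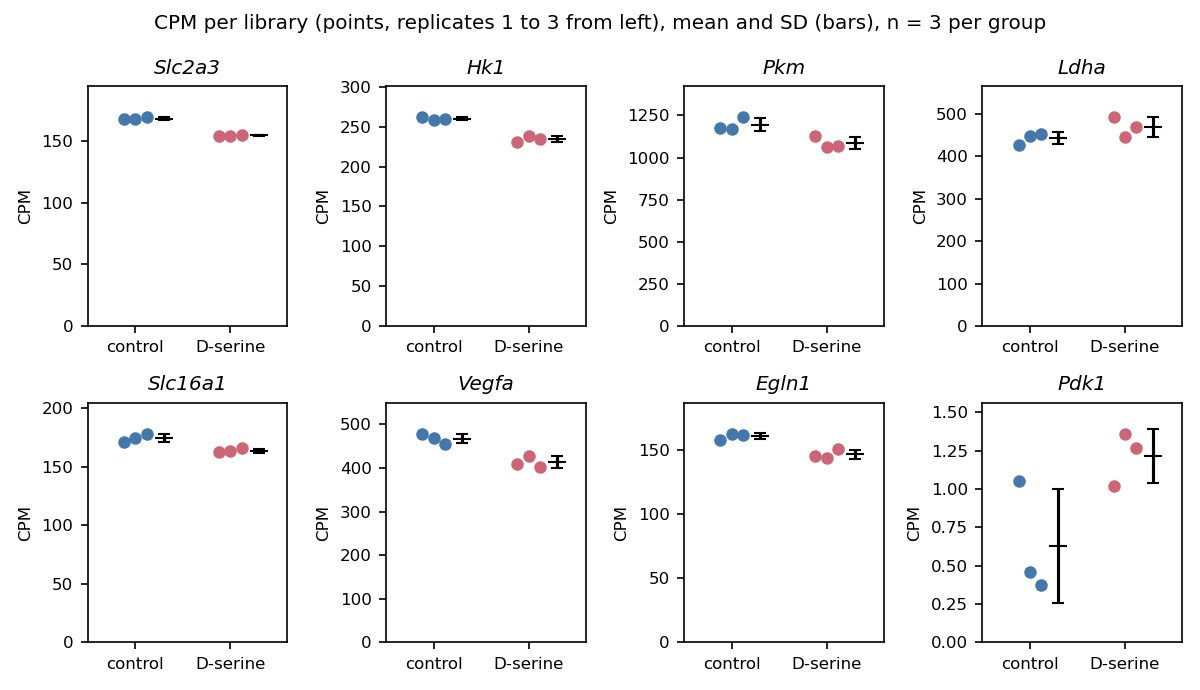
CPM of 8 genes in every library (points, replicates 1 to 3 from left to right), with mean and SD beside them and axes from 0. Control and D-serine libraries are separate for Slc2a3, Hk1, Pkm, Slc16a1, Vegfa and Egln1, with D-serine below control in each, and overlap for Ldha and Pdk1. The panels are a selection. Of the 29 tested genes, 11 were separate (37.9%, beside 32.9% of all genes), 9 lower and 2 higher. The higher ones, Gapdh and Pfkfb1, are not drawn. Over all 13366 genes, 2223 were separate and lower and 2168 separate and higher.

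**Figure D4:**
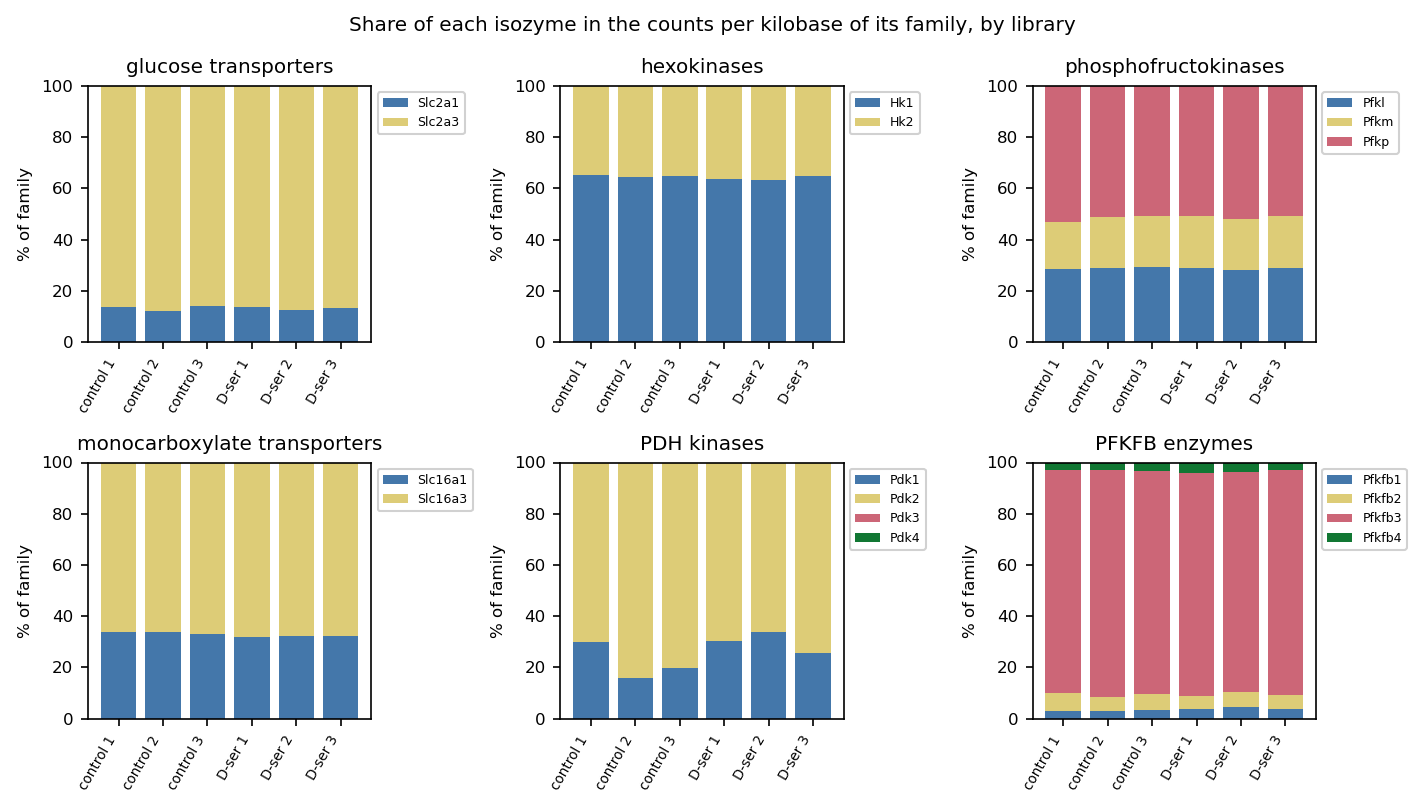
Share (% of CPM per kilobase) of each isozyme in 6 families, 1 bar per library. The make-up is nearly the same in all 6 libraries, with Slc2a3, Hk1, Pfkp, Slc16a3, Pdk2 and Pfkfb3 leading; the Pdk1 share is the most variable, from 15.7% to 33.7%.

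Pyruvate dehydrogenase kinases shut the gate between pyruvate and the mitochondrial citric acid cycle, and in Neuro2a their transcripts were scarce. Pdk1, the isoform best known as a HIF-1 target, had 34, 17 and 14 counts in controls 1 to 3 and 40, 50 and 51 counts in D-serine replicates 1 to 3. Control replicate 1, at 1.05 CPM, was as high as D-serine replicate 1 at 1.02 CPM, and the other controls were at 0.458 and 0.376 CPM. The log2 fold change of 0.97 (SE 0.38, 95% interval 0.15 to 1.79) was the highest of the 29 genes, yet its edgeR adjusted p was 0.117, and without 1 library at a time it ran from 0.70 to 1.54. Pdk2 had 35, 40 and 25 counts in the controls and 40, 43 and 65 with D-serine (log2 fold change 0.43, SE 0.31, edgeR adjusted p = 0.386). With so few counts, differences smaller than these intervals were not detectable for the kinases.

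The PFKFB enzymes make and remove fructose 2,6-bisphosphate, the strongest activator of phosphofructokinase. Pfkfb3, the isoform with the highest kinase activity, held 87.8% ± 0.98 of the family per kilobase in the controls and 86.9% ± 0.88 with D-serine. It had 164, 175 and 164 CPM in the controls and 163, 168 and 170.5 CPM under D-serine. No difference was detectable at this precision (log2 fold change -0.0020, 95% interval -0.10 to 0.09), and its sign was positive under upper quartile scaling, at 0.03. Pfkfb2 had a log2 fold change of -0.17 (SE 0.085, edgeR adjusted p = 0.211). Pfkfb1 and Pfkfb4, both under 5 CPM, had log2 fold changes of 0.42 and 0.29 (SE 0.20 and 0.15, edgeR adjusted p = 0.190 and 0.229). For Pfkfb1 the groups did not overlap, at 1.80, 1.86 and 1.99 CPM in the controls and 2.19, 2.99 and 2.38 CPM under D-serine.

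Vegfa, which encodes the angiogenic growth factor VEGF-A and is a classic hypoxia target, had the smallest p of the 29. It lies on chromosome 17 (deposited span 46153943 to 46169326, minus strand). Controls 1 to 3 had 479, 468.5 and 456 CPM and D-serine replicates 1 to 3 had 409, 429 and 403 CPM, without overlap. Vegfa fell by 11.6% (log2 fold change -0.18, SE 0.042, 95% interval -0.27 to -0.09, edgeR adjusted p = 0.0223). It kept its call under upper quartile scaling (0.0429) and library totals (0.0423). Without control replicates 1, 2 or 3 or D-serine replicate 3 the adjusted p was 0.102, 0.105, 0.0523 and 0.0927.

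The oxygen-sensing genes gave no call. Egln1, the main prolyl hydroxylase that marks HIF-1α for destruction, was at 158, 162 and 162 CPM in the controls and 145, 144 and 150.3 CPM under D-serine. Its groups were separate (log2 fold change -0.13, SE 0.042, edgeR adjusted p = 0.0595). It passed the threshold with DESeq2 (0.0416), without D-serine replicate 1 (0.0348) and with the length trend removed (0.0166). Hif1a, the oxygen-regulated subunit, was at 304 ± 5.92 CPM in the controls and 298 ± 6.78 CPM under D-serine (log2 fold change -0.03, 95% interval -0.11 to 0.06); under upper quartile scaling it was 0.0032. HIF-1α is regulated mostly as a protein, which these data do not measure. Bnip3, a mitophagy receptor and hypoxia target, had 13.7, 12.9 and 12.9 CPM in the controls and 16.1, 13.5 and 13.1 CPM under D-serine, where replicate 1 alone stood above the controls (log2 fold change 0.11, SE 0.094, edgeR adjusted p = 0.462).

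Other genes of the same pathways came from 3 lists. Of 30 further hypoxia genes, 23 were tested and 3 passed, 2 lower and 1 higher (13% of those tested, beside 9.74% of all genes, median log2 fold change -0.05). That share is near the background. The collagen prolyl hydroxylase subunits P4ha1 and P4ha2 fell, P4ha2 from 79.6, 77.8 and 82.0 CPM to 73.0, 67.5 and 63.4 CPM (log2 fold change -0.23, SE 0.057, edgeR adjusted p = 0.0257), P4ha1 with a log2 fold change of -0.16 (SE 0.047, edgeR adjusted p = 0.0497). Bhlhe40, a transcriptional repressor also known from the circadian clock, rose, with means of 54.1 ± 0.85 in the controls and 60.9 ± 1.39 CPM under D-serine (edgeR log2 fold change 0.17, SE 0.049, adjusted p = 0.0449). The hypoxia list had 0 calls without control replicate 1 or 2 or D-serine replicate 3. P4ha1 and Bhlhe40 kept their calls, of the fits omitting 1 library, only without D-serine replicate 1, with adjusted p of up to 0.194 and 0.154 in the others, and P4ha2 only without D-serine replicate 1 or 2 (up to 0.102). Under upper quartile scaling P4ha1 was at 0.105.

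Of 43 other isoforms and partners of glycolysis, 27 were tested and 2 passed, Emb and Gpd1, both lower (7.41% of those tested, below the 9.74% of all genes, median -0.12). Gpd1, cytosolic glycerol 3-phosphate dehydrogenase, which diverts triose phosphate to glycerol and shuttles NADH, went from 9.05, 10.4 and 8.73 CPM to 7.52, 7.59 and 6.08 CPM (log2 fold change -0.41, SE 0.12, edgeR adjusted p = 0.0442). On omitting 1 library, Gpd1 kept its call only without D-serine replicate 1 or 2 (adjusted p of up to 0.181 in the others), and upper quartile scaling gave 0.0570. The third list held 19 genes of pyruvate entry and the pentose phosphate path. It includes the mitochondrial pyruvate carrier, the pyruvate dehydrogenase complex and glucose 6-phosphate dehydrogenase. Of these genes, 18 were tested and 0 passed in edgeR, and DESeq2 called 0 as well. An unadjusted edgeR p under 0.05 was found for 3 of the 18, beside 3769 of all 13366 genes. Their median log2 fold change was 0.02.

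Which genes passed depended on the libraries and the scaling, as the plot of adjusted p by setting shows. None of the 16 alternative fits called any of the 34 genes higher. Leaving out control replicate 1, 2 or 3 or D-serine replicate 3 left 0 of the 29 called, and 0.921%, 0.501%, 3.34% and 2.15% of all genes. Leaving out D-serine replicate 1 gave 5, namely Hk1, Vegfa, Slc2a3, Egln1 and Pkm (17.2%), beside 12.5% of all genes. Removing each library's trend on exon length called the same 5, beside 15.3% of all genes. Some log2 fold changes shrank with it and others grew. Hk2 went from -0.09 to -0.03, Pfkfb2 from -0.17 to -0.03 and Hk1 from -0.15 to -0.11. Tpi1 went from 0.09 to 0.04 and Ldha from 0.08 to 0.05, while Aldoa and Pgk1 each went from -0.04 to -0.08.

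**Figure D5:**
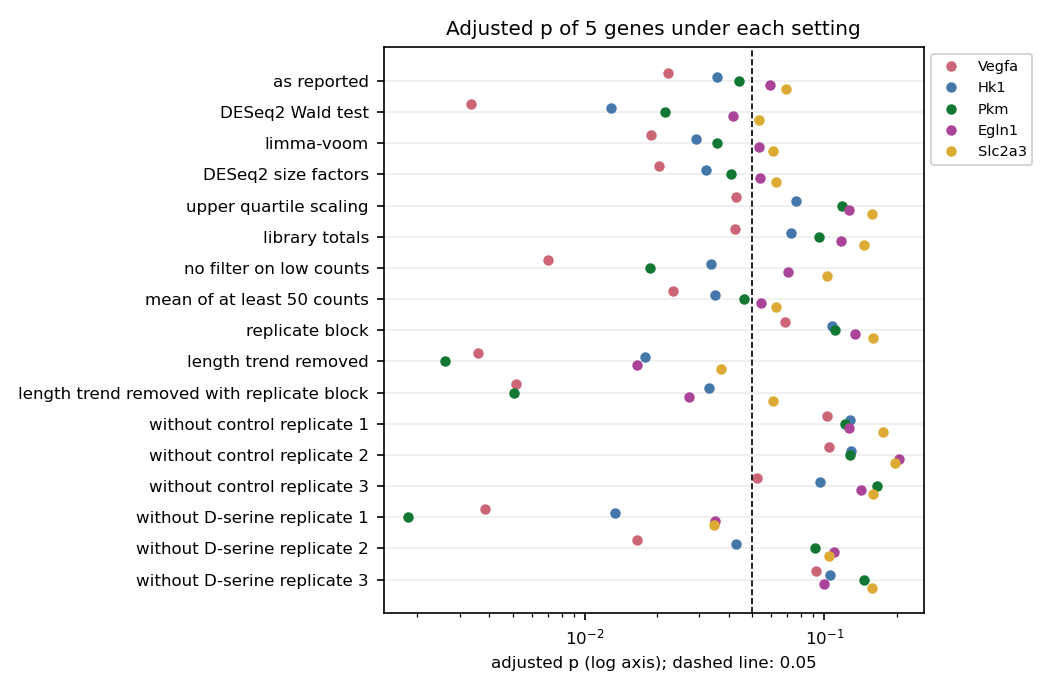
Adjusted p (log axis) of Vegfa, Hk1, Pkm, Egln1 and Slc2a3 as reported and under 16 other settings; the dashed line is 0.05. All 5 lie left of the line without D-serine replicate 1 and with the length trend removed, and all 5 lie right of it without control replicate 1, 2 or 3 or without D-serine replicate 3.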

How the data were processed

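Poly(A) RNA of 6 Neuro2a libraries was sequenced from a stranded kit as paired-end reads. The deposited table holds raw counts per gene and library, made by the authors; per the submitters' processing notes the tools include bcl2fastq, Trim Galore, HISAT2, featureCounts, Subread and DESeq2, with the builds GRCm38 and mm10. Versions, strand use in counting and the treatment of multiply matching reads are not given in the sources used here. No member's deposited start equals its GENCODE start on GRCm38, and the differences run from 648 to 7259699 bases. The deposited positions are therefore not GRCm38 positions, although the notes name that build. They are given without a build.

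Counts were tested with edgeR 4.0.16 (R 4.3.3): filterByExpr (13366 of 24391 genes), TMM scaling, quasi-likelihood F test, and Benjamini-Hochberg adjustment over all tested genes with a threshold of 0.05. SE is the absolute log2 fold change over the square root of F. The procedure was run on simulated counts without an outlying library or a length trend. Their non-zero changes were all larger than those of the called members, so that run does not bear on these calls. Alternatives were DESeq2 1.42.0, limma-voom 3.58.1, other scalings and filters, a spline on exon length, a replicate block, and leaving out each library. By rule every member could be named, with full statistics for called members, isozyme pairs and rate-setting steps, and of each other list the genes past the threshold. Eno1b, Bsg, Hand2, Mycn and Tubb3 were chosen after their values were seen. Members and lists were chosen with earlier results of these data known. Promoter sequences come from RefSeq (GRCm38.p6). Total counts of 32518483 to 40024265 per library set the precision; floors of 3 counts cover counting error only.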

Additional observations from a re-analysis of the deposited data

How the results depend on the processing

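Vegfa, Hk1, Pkm, Egln1 and Slc2a3 had the same direction in all 16 alternatives. Vegfa passed the threshold in 11, Hk1 in 9, Pkm in 8, Egln1 in 4 and Slc2a3 in 2. Upper quartile scaling and library totals each left 1 of the 34 genes called, lower (Vegfa), and 412 of all genes lower, with 0 and 1 calls among the other isoforms and partners. Without a filter, 987 genes were lower. With the length trend removed, 5 of the 34 were called, all lower, beside 2043 genes (1023 higher, 1020 lower). Leaving out 1 library gave 0 to 5 of the 34 (0 to 5 lower), 68 to 1699 genes (47 to 783 higher, 21 to 916 lower), 0 to 4 other isoforms and partners, 0 to 1 gene of pyruvate entry and pentose phosphate and 0 to 3 of hypoxia; the lowest count of genes came without control replicate 2 and the highest without D-serine replicate 1.

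No pairing by replicate number was detectable. Deviations of same-numbered libraries from their group means correlated at -0.0687, 0.0197 and -0.0187, and those of differently numbered ones at -0.0761 to 0.0877. Such values do not settle whether same-numbered samples were handled together. With a replicate block 298 genes passed (178 higher, 120 lower), and 0 of the 34 or of any other list. With the block and the length trend removed together, 1900 genes passed, 4 of them members. The cause of these shifts was not tested.

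Small log2 fold changes changed sign. Under upper quartile scaling and library totals, Pfkm was 0.01176 and 0.01132, Slc16a3 0.02716 and 0.02667, Pfkfb3 0.02756 and 0.02712, and Hif1a 0.003211 and 0.002659. With the length trend removed, without and with the block, Pgam1 was -0.01232 and -0.01223, Pfkfb3 0.05564 and 0.05639, and Hif1a 0.01714 and 0.01706. With a mean of at least 50 counts, Slc16a3 was 5.341e-05 and Pfkfb3 0.0007111. Leaving out 1 library, Pfkm ran from -0.05764 to 0.01668, Slc16a3 from -0.02506 to 0.02893 and Pfkfb3 from -0.01702 to 0.0305. None passed the threshold.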
